A study of Mus musculus with 3 samples.

Results

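The genes described here encode caspases, their activator and a pair of their inhibitors, in LNC, a malignant B-1 cell line that arose in a lymph node of a mouse of the New Zealand Black (NZB) strain aged 1 year. They are Casp1, Casp2, Casp6, Casp8, Casp9, Apaf1, Birc2 and Cflar, chosen by symbol with earlier results of these data known. Every probe set that the platform annotation assigns to them was taken. These are 12 probe sets of 12588 on the array that are not controls, and 8 genes of 8220 with a probe set of a single symbol. None of the 12 was shared with another symbol. RNA was measured on 3 Affymetrix arrays, 1 per group: cells given an IL-10 antisense oligonucleotide at 20 µM, cells given a scrambled form of it at 20 µM as a control for effects of any oligonucleotide, and untreated cells, with RNA taken at 24 h per the labels. All 3 groups are the same line, so no normal B cell stands beside them, and the labels do not say whether an array held 1 culture or several pooled.

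Caspases are cysteine proteases made as inactive precursors that cut their targets after aspartate. Initiator caspases are switched on by being brought together: Casp8 on death receptors through the adaptor Fadd, Casp9 on the apoptosome that Apaf1 builds once cytochrome c leaves mitochondria. Executioner caspases such as Casp6 then cut structural and repair proteins, while Casp1 serves inflammation by maturing interleukin-1 beta and interleukin-18. Cflar, a relative of Casp8 without its protease activity, competes at the receptor, and Birc2 (cIAP1) is a ubiquitin ligase that acts with Traf2 at tumour necrosis factor receptors.

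Levels are probe set intensities on the authors' linear scale, brought to a common level on each array. Values below a noise floor of 595.9 cannot be told from background, since perfect-match minus mismatch signals scatter around 0, and were set to that floor before log2 was taken. Each gene stands by whichever of its probe sets had the highest mean, and it was kept if that one lay above the floor on any array, which left 4643 genes. With 1 array per group no test was possible and no p-value is given. The scatter given beside a difference is the 95th percentile of the absolute log2 difference between the scrambled and untreated arrays over the 300 probe sets nearest in level, so it also holds any effect of the scrambled oligonucleotide.

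On each array 42.0% to 42.6% of probe sets were above the floor. The targeted gene Il10 read 13946 on the array labelled antisense, 5616 with scrambled oligonucleotide and 5164 in untreated cells, so its RNA was not lower there, and every direction below rests on the label. Of the bacterial spike-in probe sets, the 6 used here are those not among the brightest 1% of all probe sets. On the array labelled antisense they read lower than on the controls, with mean log2 differences of -0.63 (untreated) and -0.51 (scrambled). The 3-prime over 5-prime signal of 18S RNA was 8.13 on it, 4.48 with scrambled and 1.72 untreated. Of the B cell markers, 6 of 8 measured were above the floor, while Cd5 and Cd22 were below it on the 3 arrays. The array labelled antisense was below both controls for Cd79a (21473 to 30469), Ms4a1 (31106 to 44803), Pax5 (7623 to 9218) and Ighm, above both for Cd79b (1489 to 1649.5) and between them for Blk (1415 to 2052). Their summed intensity was 209293 on the array labelled antisense, 271181 with the scrambled oligonucleotide and 239059 untreated, most of it Ighm at 145518, 183787 and 155216. Of the T cell markers 1 of 6 passed, Cd4 (1266 to 2339), with the Cd3 chain genes, Cd8a and Thy1 below the floor. Macrophage markers passed in 4 of 6, with Lyz2 and Adgre1 below the floor, and their sums were 16658, 22943 and 22739 in the same order. Most of these sums is Mpeg1, at 14341, 20152 and 18875, while Cd68 went the other way, at 1331, 767.5 and 854.5. Stromal markers passed in 1 of 5, Col1a1 (829 to 1006), with Col1a2, Col3a1, Fn1 and Sparc below the floor. The part of the spike-in level, the 18S ratio and these markers in the results below was not tested.

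Of the 8 genes, 7 were above the floor on each of the 3 arrays in at least 1 probe set, and Casp6 was below it on all of them. Birc2 had the clearest difference: on the array labelled antisense it read 1.59-fold over untreated and 1.60-fold over scrambled, and the controls were nearly the same. Casp2 read 1.41-fold over untreated and 1.57-fold over scrambled, and Apaf1 1.26-fold and 1.21-fold, both within the scatter. Casp1 was slightly lower than both controls, by less than the scatter, and higher than both once the arrays were scaled to the spike-in controls. Casp8, Casp9 and Cflar lay between the controls, and above both under that scaling. The plot of intensities shows every probe set.

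**Figure D1:**
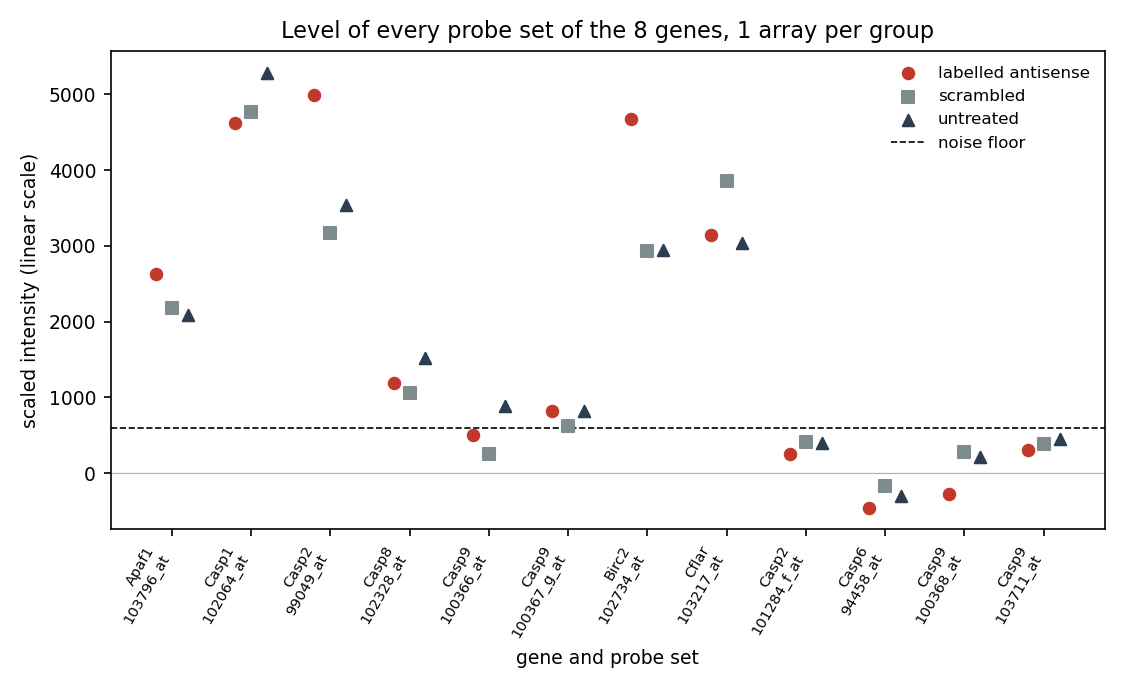
Scaled intensity (linear axis) of the 12 probe sets of the 8 genes, with 1 point per array and the floor of 595.9 dashed; there are no replicates, so no error bars are drawn. Birc2 and Casp2 are highest on the array labelled antisense, at 4676 and 4990.5, Casp2 within its scatter, and 4 probe sets on the right lie below the floor on every array.

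Among the inhibitors, Birc2 (probe set 102734_at) read 4676 on the array labelled antisense, 2928 with the scrambled oligonucleotide and 2945 untreated. The array labelled antisense was high and both controls were low, and scrambled was lower by 0.57% than untreated. In RNA of whole cultures, a change in the share of cells that make a transcript and in the amount per cell cannot be told apart. The log2 difference was 0.67 against untreated and 0.68 against scrambled, against a scatter of 0.64 at this level. Birc2 was thus just past the scatter in both comparisons, and it was the only one of the 7 genes that was. Of all 4643 genes, 2.46% were above both controls by more than their scatter and 2.48% were below both.

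Cflar (103217_at) read 3146 on the array labelled antisense, 3861 with the scrambled oligonucleotide and 3035 untreated. The scrambled array was the high one, and the other arrays differed by 0.05 on the log2 scale. Against scrambled the array labelled antisense differed by -0.30, and scrambled against untreated by 0.35, both within the scatter of 0.67. The log2 difference of Birc2 exceeded that of Cflar by 0.62 against untreated and by 0.97 against scrambled. Such a gap between a pair of genes measured on the same arrays is the same under any constant scaling of the arrays, and no error can be given for it.

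Apaf1 (103796_at), the scaffold that gathers Casp9, read 2629 on the array labelled antisense, 2179 with the scrambled oligonucleotide and 2089 untreated. It was highest on the array labelled antisense, with log2 differences of 0.33 against untreated and 0.27 against scrambled, inside a scatter of 0.68. The controls differed by 0.06.

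Casp9, which Apaf1 activates, was dim in all its 4 probe sets. The brightest, 100367_g_at, read 820 on the array labelled antisense, 628 with the scrambled oligonucleotide and 824 untreated, little above the floor. The array labelled antisense was level with untreated, at a log2 difference of -0.01, and 0.38 above scrambled, where the scatter is 1.01. Probe set 100366_at passed only through the untreated array, at 882 against 498 and 251, both of which are below the floor. Untreated was at least 1.48-fold higher by that probe set, while the brighter one was level between untreated and the array labelled antisense. The other two Casp9 probe sets, 100368_at and 103711_at, were below the floor on each array, between -277 and 448.

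Casp8 (102328_at), the initiator at death receptors, read 1187 on the array labelled antisense, 1056 with the scrambled oligonucleotide and 1520 untreated. Untreated was the high one. The array labelled antisense lay between the controls, at -0.36 against untreated and 0.17 against scrambled, and scrambled lay at -0.53 against untreated. At this level the scatter is 1.23, or 2.35-fold, so no difference of the size seen could be told from it. Casp8 and Cflar are next to each other among protein-coding genes in RefSeq (GRCm38.p6). On the scrambled array against untreated Cflar exceeded Casp8 by 0.87 in log2 difference, the largest such gap among the measured genes. Each of these differences was within its own scatter. For the array labelled antisense the gap of Cflar over Casp8 was 0.41 against untreated and -0.46 against scrambled. A divergence of these neighbours is thus not shown.

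Casp2 (99049_at), an initiator that can act in the response to DNA damage and other stress, read 4990.5 on the array labelled antisense, 3174 with the scrambled oligonucleotide and 3539 untreated. The array labelled antisense was highest and the controls differed by -0.16, scrambled being lower. The log2 difference was 0.50 against untreated and 0.65 against scrambled, both within the scatter of 0.70. A second Casp2 probe set, 101284_f_at, is of the family type that can bind several transcripts, and it was below the floor throughout, between 248 and 415.

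Casp6 (94458_at), an executioner that cuts lamins, read -454 on the array labelled antisense, -172 with the scrambled oligonucleotide and -305 untreated. These values are below the floor, so no level and no fold can be given for Casp6.

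Casp1 (102064_at), the inflammatory caspase, read 4626 on the array labelled antisense, 4767.5 with the scrambled oligonucleotide and 5290 untreated. The log2 differences were -0.19 against untreated and -0.04 against scrambled, against a scatter of 0.51, and with scaling to the spike-in controls they turned to 0.44 and 0.47. Birc2 exceeded Casp1 by 0.86 and 0.72 in these differences, and Casp2 exceeded it by 0.69 and 0.70, gaps that no constant scaling alters.

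**Figure D2:**
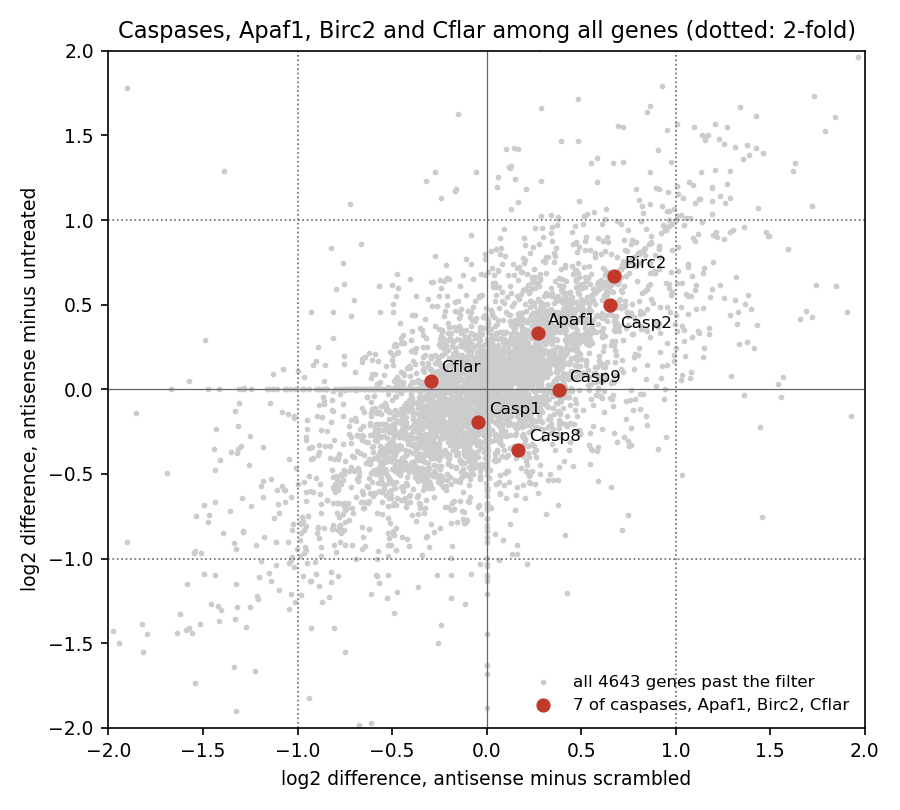
Log2 difference of the array labelled antisense from the scrambled array (horizontal) and from the untreated array (vertical) for 4643 genes in grey and the 7 measured genes in red, with 2-fold dotted and 21 genes beyond the axes at 2 not shown. Birc2 at 0.68 and 0.67 and Casp2 at 0.65 and 0.50 lie up and to the right, inside the 2-fold lines, and Casp1 at -0.04 and -0.19 turned positive with scaling to the spike-in controls.

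Counted at 2-fold, 0 of the 7 genes differed in any pair of arrays. Over all 4643 genes, comparing the array labelled antisense with untreated, 2.67% were 2-fold or more higher and 2.11% 2-fold or more lower. Against scrambled these shares were 3.14% and 2.8%. Between scrambled and untreated they were 1.68% and 1.38%. With shares this small among all genes, 0 of 7 is no result about these genes. At 1.5-fold, Birc2 was counted as higher against untreated, where 9.22% of all genes were, and Birc2 and Casp2 were counted against scrambled, where 10.1% were. None was 1.5-fold lower, against 7.5% and 9.28% of all genes.

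By direction alone, 3 of 7 genes (Apaf1, Birc2 and Casp2) were above both controls and 1 of 7 (Casp1, which turned with the spike-in scaling) was below both, where 37.4% of all genes were above both and 31.6% below both. The count above both is near the share of all genes, and with 7 genes neither count sets them apart. The median over the 7 was 0.05 against untreated and 0.27 against scrambled, and -0.15 for scrambled against untreated, where the median over all genes was 0 in each. The 7 were kept because they lay above the floor, and Casp6 is not among them.

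Scaling the arrays to the spike-in controls moved the median of all genes to 0.58 against untreated and 0.48 against scrambled. Birc2 then differed by 1.30 and 1.19 and Casp2 by 1.13 and 1.17, so that 2 of 7 genes were at least 2-fold higher in either comparison, where 15.7% and 11.9% of all genes were. Relative to the common shift, Birc2 differed by 0.71 from either control, Casp2 by 0.54 and 0.69, and Apaf1 by 0.38 and 0.31. Casp1 differed by -0.15 and -0.01 relative to it. For genes above the floor this scaling adds a constant for each pair of arrays, so these values restate those reported and are no separate evidence. They lie slightly higher because the median of all genes moved by less than that constant. All 7 genes were above both controls under this scaling, before the shift was taken off.

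**Figure D3:**
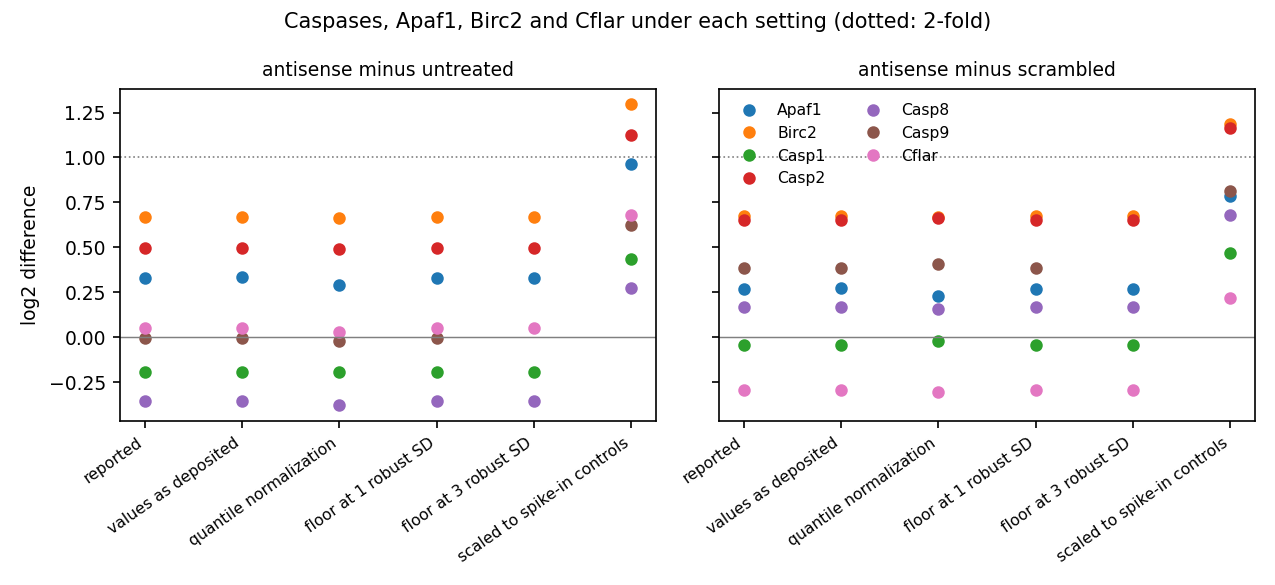
Log2 difference of the 7 genes from untreated (left) and from scrambled (right) under each way of scaling the arrays and setting the floor, with 2-fold dotted; Casp9 is missing where the floor of 3 robust standard deviations removed it. Scaling to the spike-in controls moved Birc2 from 0.67 to 1.30 against untreated and Casp1 from -0.19 to 0.44. The order of Birc2, Casp2 and Apaf1 against either control was kept in each setting, but only quantile normalization could have changed it.

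The sequence before the start site is shown for the 4 genes that lay on the same side of both controls, Birc2, Casp2 and Apaf1 above and Casp1 below, so that they can be set side by side. Each run is the 250 bases before a RefSeq start, 5′ to 3′ on the gene's strand, in build GRCm38.p6: chr9:7837058-7837307 on the minus strand for the first of the Birc2 starts, chr6:42264735-42264984 on the plus strand for Casp2, chr10:91082744-91082993 on the minus strand for Apaf1 and chr9:5298267-5298516 on the plus strand for Casp1. Capitals mark matches on either strand to any of 6 motifs: the cyclic AMP response element TGACGTCA, the GC box GGGCGG, the CCAAT box CCAAT, the TATA box TATAAA, the E box CACGTG, and the NF-kB consensus.
Birc2: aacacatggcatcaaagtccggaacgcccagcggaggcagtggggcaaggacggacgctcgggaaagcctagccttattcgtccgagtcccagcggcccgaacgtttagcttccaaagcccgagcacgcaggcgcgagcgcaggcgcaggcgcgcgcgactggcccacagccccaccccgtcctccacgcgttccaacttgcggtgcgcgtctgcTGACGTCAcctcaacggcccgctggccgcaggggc
Casp2: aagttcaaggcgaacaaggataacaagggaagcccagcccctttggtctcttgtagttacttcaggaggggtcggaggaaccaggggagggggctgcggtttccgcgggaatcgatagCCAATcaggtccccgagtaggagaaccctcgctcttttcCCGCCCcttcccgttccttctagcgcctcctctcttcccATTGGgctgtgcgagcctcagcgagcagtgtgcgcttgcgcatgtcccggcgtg
Apaf1: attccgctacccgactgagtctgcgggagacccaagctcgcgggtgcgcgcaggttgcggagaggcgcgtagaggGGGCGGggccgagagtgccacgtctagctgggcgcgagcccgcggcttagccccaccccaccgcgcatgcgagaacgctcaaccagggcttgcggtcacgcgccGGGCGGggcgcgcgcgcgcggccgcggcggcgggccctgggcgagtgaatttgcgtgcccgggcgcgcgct
Casp1: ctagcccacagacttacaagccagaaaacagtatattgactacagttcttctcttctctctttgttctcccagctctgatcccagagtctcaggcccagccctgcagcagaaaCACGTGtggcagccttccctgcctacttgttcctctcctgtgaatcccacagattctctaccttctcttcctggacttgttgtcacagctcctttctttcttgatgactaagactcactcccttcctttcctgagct

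The Birc2 window holds TGACGTCA, a palindrome, 35 bases before the start, a motif that 1.55% of 32851 windows of this length hold. The Casp2 window holds a GC box and 2 CCAAT boxes, and the Apaf1 window 2 GC boxes; 32.7% of windows have a GC box and 33.9% a CCAAT box. Casp1 has an E box, as 6.02% of windows do. Birc2, Casp2 and Apaf1 have 68.4%, 60.4% and 75.6% G and C with 31, 17 and 42 CpG dinucleotides, and Casp1 has 49.2% with 1 CpG, where the median window has 52.4% and 6. Of the other genes, Casp9, level with untreated, has 66.0% with 25 CpG and 4 GC boxes. Casp6, which has no level, has 58.4% with 11 CpG and 1 GC box. Casp8 has 39.6% with 5 CpG and 1 CCAAT box. Cflar has 42.8% with 7 CpG and 2 overlapping TATA box matches, a motif that 12.4% of windows hold. The window of the second Birc2 start has 61.2% with 19 CpG and 2 GC boxes. No match to the NF-kB consensus lay in any of the 9 windows of the 8 genes, while 7.25% of all windows hold one. A match is a description of these letters and not a measured site. The motifs were chosen after the members' windows had been read, with TGACGTCA already seen in that of Birc2, so the share of windows that hold it does not measure how unusual Birc2 is.

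The genes with the nearest pattern were sought among those above the floor on the 3 arrays and within 1 log2 unit of the same mean level, by the larger of the gaps in the differences from untreated and from scrambled. For Birc2 these were Mpp1, at a gap of 0.0046, and Zc3h14, at 0.032, and 11 of 1724 genes lay within 0.1 of it. Casp2 was nearest to Serhl and Gadd45b, at 0.033 and 0.034, with 17 of 1643 within 0.1. Apaf1 was nearest to Mdm2, at 0.0035, and Rnf149, at 0.014, with 59 of 1907 within 0.1. Casp1 was nearest to H2-Ea and Mrps7, Casp8 to 4833420G17Rik and Paqr7, Casp9 to Ptpn14 and Zdhhc16, and Cflar to Miip and Grb2, at gaps of 0.0058 to 0.041. A pattern here is 3 arrays, and gaps of this size are far below the scatter.

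The other caspases and inhibitors of the same families were looked at next. Of 3 other caspases analysed here, 1 passed the filter on low values. Casp4, an inflammatory caspase whose gene lies next to Casp1, read 10020 on the array labelled antisense, 6253 with the scrambled oligonucleotide and 8219 untreated. It was lowest on the scrambled array. Its difference was 0.68 against scrambled, past the scatter of 0.38, and 0.29 against untreated, within it. Scrambled lay at -0.39 against untreated, just past the scatter. The scatter is itself a percentile of scrambled against untreated differences. Some probe sets exceed it by construction, so no conclusion about Casp4 is drawn from that value. No error can be given for the gap between Casp4 and Casp1, so a divergence of these neighbours is not shown. Casp12, the third gene of that row in RefSeq, was below the floor at 35 to 85, as was Casp14 at 113 to 578.

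Here and below, genes are counted as measured where a probe set names that gene alone; others of a list are not analysed here. Of 9 other inhibitors of apoptosis listed, 4 were measured and 2 passed. Birc3 (cIAP2), which lies next to Birc2, was below the floor on each array, at -85 to 66, as was Xiap. Birc5 (survivin), which also serves in mitosis, read 6864, 7414 and 8744 on the arrays labelled antisense, scrambled and untreated, at -0.35 and -0.11 against untreated and scrambled, within the scatter of 0.40. With scaling to the spike-in controls both turned positive. Birc6, a very large relative, read 3298, 3500 and 2806 in the same order, with differences of 0.23 and -0.09. Of Birc2, Birc5 and Birc6, the family members above the floor, only Birc2 was past the scatter. It passed narrowly, at 0.67 and 0.68 against 0.64.

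Upstream of Casp8, 14 of 20 death receptor, ligand and adaptor genes were measured and 7 passed. The receptors and ligands Fas, Fasl, Tnfrsf1a, Tnfrsf21 and Tnfsf10 were below the floor on the 3 arrays, and a further Fas control probe set was below it too, at 49.2 to 358. Fadd read 691 on the array labelled antisense, 1065 with the scrambled oligonucleotide and 545 untreated, the last below the floor. Of the 7 that passed, 1 was above both controls and 3 below both, where 37.4% and 31.6% of all genes were, and the median was -0.23 from untreated and -0.58 from scrambled. The 1 above was Traf2, the partner of Birc2, at 4097 against 1456 scrambled and 2189 untreated, and its differences of 0.90 from untreated and 1.49 from scrambled were past a scatter of 0.68. Casp8ap2, which binds Casp8, read 1562 against 2328 and 2205 in the brighter of its 2 probe sets. Its differences of -0.50 and -0.58 were within the scatter of 0.82. Faf1, a Fas-associated factor, was read by a family probe set at 1930 on the array labelled antisense, 10360 with the scrambled oligonucleotide and 3369 untreated. Its other probe set read 620 on the array labelled antisense and below the floor on the others, so the high scrambled value was not seen there.

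Around Apaf1, 16 of 21 genes of cytochrome c release and apoptosome partners were measured and 11 passed, with 3 above both controls, 6 below both and medians of -0.23 against untreated and -0.19 against scrambled, beside shares of 37.4% and 31.6% and medians of 0 over all genes. These counts do not set the list apart. Cycs, the somatic cytochrome c, read 2823, 2806 and 2897 on the arrays labelled antisense, scrambled and untreated, nearly level. Diablo, which displaces inhibitor proteins from caspases, was below the floor. Hspa4, a heat shock protein, read 4296.5 against 8759 and 8541, at -0.99 against untreated and -1.03 against scrambled in its brightest probe set. Its other probe sets agreed only in part, at -1.20 and -0.43, at -0.70 and -0.00, and at 0.07 and 0.16. Against untreated only the last of them went the other way. The first was below the floor on the array labelled antisense, so its differences are bounds. Hspe1, a mitochondrial chaperonin, was higher than both, by 0.69 and 0.31, the first past the scatter of 0.33.

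Downstream, 21 of 25 caspase substrates were measured and 19 passed, with 5 above both controls, 6 below both and medians of 0.03 and -0.11, again beside 37.4% and 31.6% of all genes. Lmnb2, a lamin, read 1450 against 2027 scrambled and 1853 untreated, at -0.35 against untreated and -0.48 against scrambled. Nfe2l2, a regulator of antioxidant genes, read 1315 against 982 and 1107, at 0.25 and 0.42. Both were within scatters of 1.04 and 1.24. Parp1, the repair enzyme whose cleavage marks caspase activity, read 2255, 2487 and 1662.5 on the arrays labelled antisense, scrambled and untreated. RNA levels do not measure cleavage.

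Of 12 genes around Casp1, 4 were measured. The Casp1 substrates Il1b and Il18 were below the floor on the 3 arrays, as was Il1a. P2rx7, a receptor for extracellular ATP that can lead to Casp1 activation, read 1765.5 against 1239 and 1229, with differences of 0.52 against untreated and 0.51 against scrambled inside a scatter of 1.10. In each of the 6 lists 0 genes were 2-fold apart from both controls in the same direction, where 1.25% of all 4643 genes were 2-fold above both and 0.991% 2-fold below both, so that 0 is no result about these lists. With scaling to the spike-in controls the differences of Birc5 and Lmnb2 from both controls became positive, as did that of Casp8ap2 from untreated, while those of Hspa4 and Faf1 stayed negative. The list medians from the controls were then above 0, apart from that of the death receptor list against scrambled, at -0.06. P2rx7 and Traf2 were then more than 2-fold above both. Under that scaling 15.7% of all genes were at least 2-fold higher against untreated and 11.9% against scrambled. The share that was 2-fold above both at once was not counted, so these shares are no like background for that call.

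**Figure D4:**
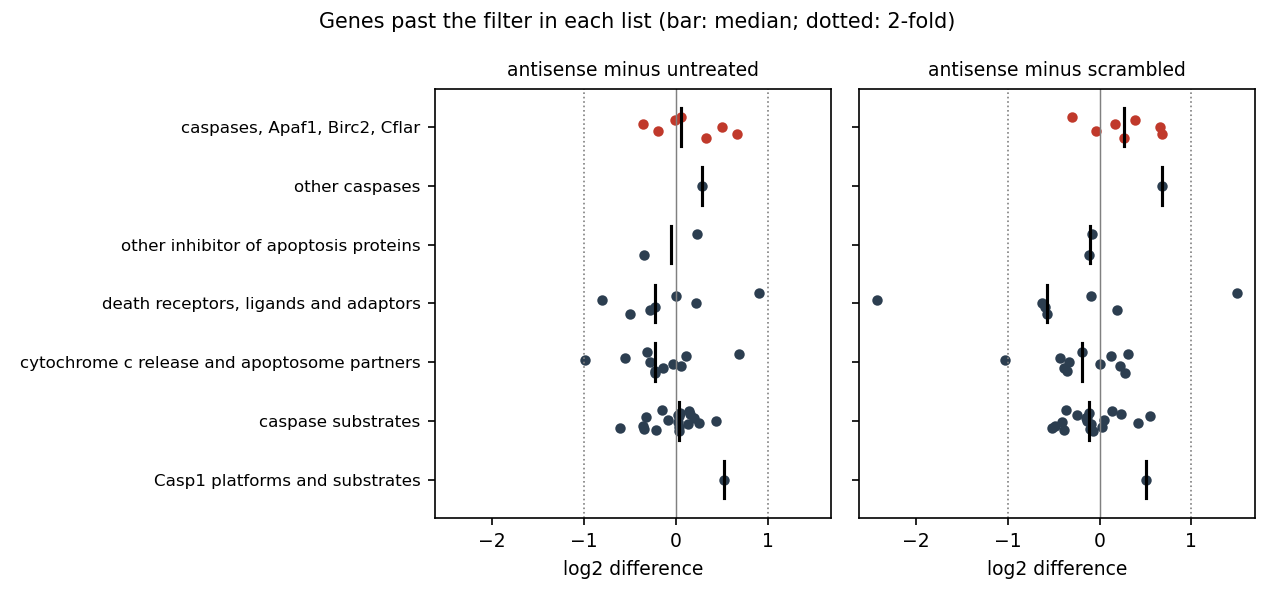
Log2 difference of the array labelled antisense from untreated (left) and from scrambled (right) for each gene past the filter in the 7 genes described here (red) and in the 6 related lists (dark), with bars at the medians and 2-fold dotted. Death receptor genes and adaptors had a median of -0.58 against scrambled, with Traf2 at 1.49 and Faf1 at -2.42 as its ends, and scaling to the spike-in controls turned its median against untreated to 0.35.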

How the data were processed

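The deposited values are linear intensities, scaled by the authors, for 12654 probe sets, 66 of them controls. Their trimmed mean, with 2% off each end, is 1500 on each array; the sources used here name no program. Each array was rescaled to a common trimmed mean over the 12588 other probe sets, values below a floor of 2 robust standard deviations of the negative values were raised to it, and log2 was taken (Python 3.11.15, numpy 2.4.6, pandas 2.3.3). Counting was tested on simulated data, and other scalings, floors and probe set rules were tried. Symbols came from the platform annotation, which gave 1 symbol for 10276 probe sets, several for 363 and none for 1949; all 8 gene identifiers matched RefSeq. This first version of the array is known to hold some probe sets of faulty sequence, which were not identified here. Probe set suffixes such as _f or _g mark families or groups. The number of arrays limits precision, and differences include any variation between cultures. The genes and lists were chosen with earlier results of these data known. Named from each list are genes above the floor on the 3 arrays and 2-fold from both controls the same way, plus the 2 with the largest mean difference; for each of the 8 genes above the floor, the 2 of nearest pattern are named. Others were named after their values were seen: Casp12, Casp14, Birc3, Xiap, Fadd, Casp8ap2, Cycs, Diablo, Parp1, the receptors, ligands and interleukins below the floor, and the markers.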

Additional observations from a re-analysis of the deposited data

How the results depend on the processing

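The values as deposited, quantile normalization, floors of 1 and 3 robust standard deviations, the mean over a gene's probe sets, no filter and the removal of suffixed probe sets each left 0 of the genes measured (7, but 6 under the high floor and 8 with no filter) 2-fold apart in each pair of arrays. Under these 7 settings the median ranged from 0.03 to 0.19 for antisense minus untreated, 0.17 to 0.27 for antisense minus scrambled and -0.17 to -0.08 for scrambled minus untreated. Scaled to the spike-in controls, 2 genes (Birc2 and Casp2) were 2-fold higher against untreated and 2 against scrambled, with medians of 0.68 and 0.78. At 1.5-fold, 1 gene was counted against untreated and 2 against scrambled. In these 7 settings, as in the values reported, Birc2, Casp2 and Apaf1 were above both controls and Casp1 below both. Only quantile normalization could have changed these sides, and under it Casp1 was at -0.19 against untreated and -0.02 against scrambled. The probe sets that stand for these genes lay above every floor tried. The values as deposited differ from those reported only by array factors of 0.9993 to 1.0004. The agreement of the settings other than quantile normalization is thus no separate evidence. Of 24 differences of single probe sets, 13 moved by more than the scatter scaled to 1 standard deviation (a yardstick set after the values were seen) under the spike-in scaling, and 2, both of the dim Casp9 probe set 100366_at, under the lower floor, to 0.74 for antisense minus scrambled and -1.57, past 2-fold, for scrambled minus untreated. Without suffixed probe sets that probe set, at -0.57 and 0, stands for Casp9 in place of -0.01 and 0.38, and the median against scrambled was 0.17, or 0.19 with the mean over probe sets, in place of 0.27. The high floor left out Casp9. No paired analysis was possible because each group has 1 array, and for the same reason no replicate could be left out. Signal over background limits Casp8 and Casp9 most, with a scatter of 1.23 and 1.01, and Casp6 has no level. Neither the label nor the IL-10 protein can be checked from these arrays.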
